A study of Mus musculus with 1 sample.

Results

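Formative pluripotency genes were examined in wild-type mouse epiblast-like cells (EpiLCs) formed over 24 h, through the poly(A) tail of each sequenced transcript. The set was given as a list of gene symbols, chosen with earlier results of these data known, and held Otx2, Fgf5, Pou3f1, Sox3, Zic2, Lef1, Sox4, Sox11, Cdh2 and Etv5. A transcript was used when its molecule had been read in at least 7 passes, and a gene was given a tail length when it had at least 10 such transcripts. Of the 10 genes, 9 had a transcript, 7 reached the minimum over both replicates together, and 5 reached it in each replicate. The 7 genes were set beside 7146 nuclear genes that reached the same minimum. Together the 10 genes gave 652 transcripts, or 0.0929% of the 701976 nuclear transcripts, and Otx2 with Etv5 supplied 440 of them, or 67.5%.

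The library was made by PAIso-seq, which copies whole polyadenylated mRNAs with their tails and reads each circularized molecule many times on a PacBio sequencer. The cells were wild-type mouse embryonic stem cells of the ICR strain, moved for 24 h onto Matrigel-coated wells into N2B27 medium with bFGF at 12 ng/ml, activin A at 20 ng/ml and KSR at 1%. There was 1 group with 2 barcoded replicates, called replicate 1 and replicate 2 here after their barcodes. The labels do not say that the replicates came from separate cultures, and Cnot8 knockout libraries were not analysed here, so no comparison between conditions was made and no test was run.

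When naive stem cells leave the ground state they pass through a formative phase, in which the naive programme is put down and genes of the early post-implantation epiblast are switched on under FGF and activin signals. Otx2 and Pou3f1 are transcription factors of this phase, Fgf5 is its classical marker, and Etv5 is an ETS factor that responds to FGF signalling. The poly(A) tail is added when an mRNA is made and is then trimmed in the cytoplasm, largely by the CCR4-NOT deadenylase, of which Cnot8 is a catalytic subunit, and terminal transferases can add other bases such as U, which is read as T in cDNA.

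Depth was 246316 nuclear transcripts in replicate 1 and 455660 in replicate 2. Marker genes were counted: 5 of 5 pluripotency markers were found, with a summed level of 150.6 transcripts per 100000 in replicate 1 and 116 in replicate 2. They include Pou5f1 and Sox2, which naive stem cells also express, so this count cannot tell EpiLCs from naive cells. The 15 naive pluripotency genes listed below ran from 0 transcripts for Prdm14 to 501 for Zfp42. Summed markers of other cell types stayed between 0 and 2.03 per 100000. Of 6 fibroblast markers, which would mark feeder cells, 4 were at 0, including Col1a1, Col1a2 and Col3a1. The neural markers Sox1 and Pax6 were read 3 and 2 times in replicate 1 and not in replicate 2, and their part in the values below was not tested.

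The sequences of the tails themselves are given first, because several of the values below turn on short tails and on the bases at their ends. For each gene, the tail of 6 to 30 nt ending in T with the most passes is shown 5′ to 3′ as cDNA, with the A bases in lower case and every other base in capitals.
Otx2: aaaaaaaaaaaaaaaaaaaT
Fgf5: aTaaaaaaaaaaaaaaaT
Pou3f1: aaaaaaaaaaaaT
Lef1: aaaaaaaaaaTTT
Sox4: aaaaaaaaaaaaaaaaT
Sox11: aaaaaaaaaaaaaaaT
Etv5: aaaaaaaaaaaaaaaaaaaTTT
These tails were 20 nt long for Otx2, 18 nt for Fgf5, 13 nt for Pou3f1 and Lef1, 17 nt for Sox4, 16 nt for Sox11 and 22 nt for Etv5. They came from molecules read in 26 to 144 passes. All were from replicate 1 except those of Fgf5, Lef1 and Sox11, which were from replicate 2. Tails with a non-A base inside, between the first and the last base, were also read, 6 in Otx2, 18 in Etv5 and 4 in Sox11, of which 4, 8 and 3 were at most 80 nt long. Of these shorter ones, the tail with the most passes is shown; that of Otx2 and that of Etv5 held a T before the last base, and that of Sox11 held a G and 2 adjacent C bases.
Otx2: aaaaaaaaaaaaaaaaaaaaaaaaaaTa
Etv5: aaaaaaaaaaaaaaaaaaTa
Sox11: aaaaaaaaaaaaaaGaCCa

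The abundance of each gene was taken as transcripts per 100000 nuclear transcripts, with a 95% Wilson interval that covers counting error only, since the molecules carried no molecular identifiers. In these bulk samples, fewer cells that express a gene and less RNA per cell cannot be told apart. Otx2, the homeodomain factor, was read 48 times in replicate 1 and 112 times in replicate 2, or 19.5 (14.7 to 25.8) and 24.6 (20.4 to 29.6) per 100000. Etv5 was read 87 and 193 times, or 35.3 (28.6 to 43.6) and 42.4 (36.8 to 48.8) per 100000. The intervals of the replicates overlapped for both genes.

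Pou3f1, the POU-domain factor also known as Oct6, was read 18 and 44 times, or 7.31 (4.62 to 11.6) and 9.66 (7.19 to 13.0) per 100000. Fgf5, the secreted FGF ligand, was read 19 and 18 times, or 7.71 (4.94 to 12.0) and 3.95 (2.50 to 6.24) per 100000. Fgf5 was thus the only 1 of the 7 genes with a lower level in replicate 2, with intervals that still overlapped. Lef1, the HMG-box partner of β-catenin in WNT signalling, had 9 and 35 transcripts, or 3.65 (1.92 to 6.94) and 7.68 (5.52 to 10.7) per 100000. The related SoxC factors were alike in number, Sox4 having 10 and 21 transcripts and Sox11 having 6 and 27. Levels were 4.06 (2.21 to 7.47) and 4.61 (3.01 to 7.05) per 100000 for Sox4, and 2.44 (1.12 to 5.31) and 5.93 (4.07 to 8.62) for Sox11. Replicate intervals separated for 0 of the 7 genes, against 11.1% of all genes tested. The counts were not divided by transcript length and are not compared between genes.

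Sox3, Zic2 and Cdh2 fell short of 10 transcripts. Sox3, a SoxB1 factor of the epiblast and neural plate, was read once in each replicate, with tails of 149 nt in replicate 1 and 144 nt in replicate 2. Cdh2, which encodes N-cadherin, was read once in replicate 1, with a tail of 70 nt, and 2 times in replicate 2, with tails of 53 and 59 nt. All 5 of these tails consisted of A only. Zic2, a zinc-finger factor, had 0 transcripts, also among molecules with fewer passes. Taking 3 counts as the limit that a count of 0 allows, its level could be up to 0.427 per 100000 over both replicates, or 1.22 in replicate 1 and 0.658 in replicate 2. The upper ends of its two-sided Wilson intervals were 1.56 and 0.843 per 100000 in the replicates. A low count here is a limit of detection at this depth, not absence of the mRNA.

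Of the genes without a tail value, Sox3 (ENSMUSG00000045179) lay at chrX:60891366-60893430 on the minus strand with 1 exon, Zic2 (ENSMUSG00000061524) at chr14:122475435-122479852 on the plus strand with 3 exons, and Cdh2 (ENSMUSG00000024304) at chr18:16588877-16809246 on the minus strand with 16 exons.

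**Figure D1:**
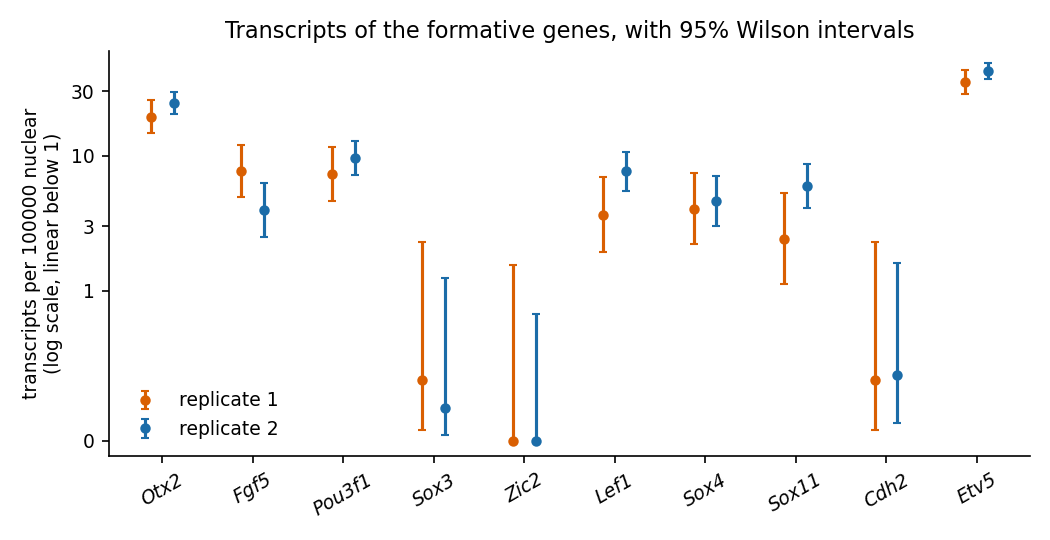
Level of each formative gene in transcripts per 100000 nuclear transcripts (log axis, linear below 1), with replicate 1 in orange, replicate 2 in blue and bars for the 95% Wilson interval. The 2 intervals of every gene overlap; Sox3, Zic2 and Cdh2 lie below 1 in both replicates.

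The gene tail was the geometric mean of the tail lengths of a gene's transcripts, counting all bases of the tail. Over the 7 genes, the median gene tail was 69.2 nt, with a range of 58.4 to 96.8 nt, while the median over all 7146 genes was 76.4 nt with quartiles at 62.4 and 88.6 nt. The difference was -7.23 nt. Of the 7 genes, 6 were under 75 nt, the boundary that the study used between short and long gene tails, and so were 47.4% of all genes. Pou3f1 was the exception. Only 3 of the 7, Otx2, Fgf5 and Sox4, lay below the lower quartile of all genes, so the members ran from the lower part of the distribution to its upper part.

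The count under 75 nt rested in part on how tails of a few bases were weighed. The geometric mean is pulled down strongly by such tails, and Sox4 had 2 tails of 1 nt among its 31 transcripts. With tails of at least 6 nt only, the gene tail of Sox4 moved from 59.0 to 78.2 nt and that of Lef1 from 69.2 to 83.2 nt, which left 4 of 7 genes under 75 nt against 34.4% of all genes. With the median in place of the geometric mean, 2 of 7 were under 75 nt against 24.3%, and with the arithmetic mean 0 of 7 against 12.5%. Sox11, at 73.6 nt, was also near the boundary. It moved to 84.6 nt with at least 15 passes, which left 5 of 7 under 75 nt against 46.9% of all genes. With identical non-A tails counted once it moved to 80.8 nt, which also left 5 of 7. The median of the members nevertheless remained below that of all genes under each of these measures.

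Otx2 had the lowest gene tail of the set. Replicate 1 gave 59.9 nt and replicate 2 gave 57.8 nt, a mean of 58.9 ± 1.46 nt (SD, n = 2), and 19.7% of all genes had a lower one. Its 160 tails ran from 1 to 245 nt with quartiles at 30.0 and 121 nt, and the median was 68.5 nt (95% interval from the order of the transcripts, 58 to 84 nt). This interval lay wholly below 91 nt, the median over all nuclear transcripts; the same held for 13.2% of all genes and for 1 of the 7 members, Otx2. The low value of Otx2 was therefore seen in both replicates at close to the same length, and it coexisted with 64 tails over 90 nt, 40.0% of its transcripts.

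Pou3f1 stood at the other end. With 94.6 nt from replicate 1 and 97.8 nt from replicate 2, its gene tail had a mean of 96.2 ± 2.23 nt (SD, n = 2), and 86.5% of all genes had a lower one. The 62 tails ran from 13 to 226 nt, with a median of 118 nt (96 to 132 nt) and quartiles at 69.8 and 146 nt. The interval was wholly above 91 nt for Pou3f1 only among the 7 genes, and for 10.7% of all genes. Both replicates placed Pou3f1 above Otx2 by more than 30 nt, which is many times the spread of either gene between replicates, and the intervals of their medians did not overlap.

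Etv5 was the most deeply read member. The replicates gave gene tails of 67.3 and 74.9 nt in turn, a mean of 71.1 ± 5.39 nt (SD, n = 2). The median over its 280 transcripts was 90 nt (82 to 98 nt), close to the 91 nt of all nuclear transcripts, and the tails ran from 11 to 226 nt. Etv5 therefore lay near the middle of all genes, with 42.5% of them lower.

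Fgf5 and Sox11 differed between the replicates. For Fgf5, replicate 1 gave a gene tail of 77.9 nt and replicate 2 one of 44.0 nt, a mean of 60.97 ± 24.0 nt (SD, n = 2), with medians of 93 and 43.5 nt over 19 and 18 transcripts. Over both replicates the median was 68 nt (46 to 93 nt). The pooled value of Fgf5, 59.0 nt, thus describes neither replicate well. Sox11, with the fewest transcripts in replicate 1, had a gene tail of 149 nt from 6 transcripts there, and 62.9 nt from 27 in replicate 2, a mean of 106 ± 61.1 nt (SD, n = 2). Its median over both was 78 nt (51 to 143 nt).

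Sox4 and Lef1 had gene tails closer between the replicates than those of Fgf5 and Sox11. Sox4 had gene tails of 60.2 and 58.5 nt in replicates 1 and 2, a mean of 59.3 ± 1.22 nt (SD, n = 2), and a median of 80 nt (63 to 113 nt). Lef1 had 57.3 nt from 9 transcripts and 72.6 nt from 35, a mean of 64.9 ± 10.8 nt (SD, n = 2), and a median of 77.5 nt (58 to 137 nt). Its replicate medians, 105 nt in replicate 1 and 75 nt in replicate 2, went the other way. The geometric mean of each gene was well below its median, and each had 2 tails of 1 or 2 nt. Both such tails of Sox4 were in replicate 2, so the closeness of its gene tails rested in part on 2 transcripts. The replicate medians of Sox4 were 72 and 80 nt.

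In the order of gene tails, Otx2, Fgf5, Sox4, Lef1, Etv5, Sox11 and Pou3f1, the median intervals of all neighbours overlapped. Among the 21 pairs, the intervals were separate for 2: Otx2 and Pou3f1, whose medians were 49.5 nt apart, and Fgf5 and Pou3f1, 50 nt apart. The gap of Otx2 to Pou3f1 was seen in both replicates. The other members could not be ordered at this depth.

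**Figure D2:**
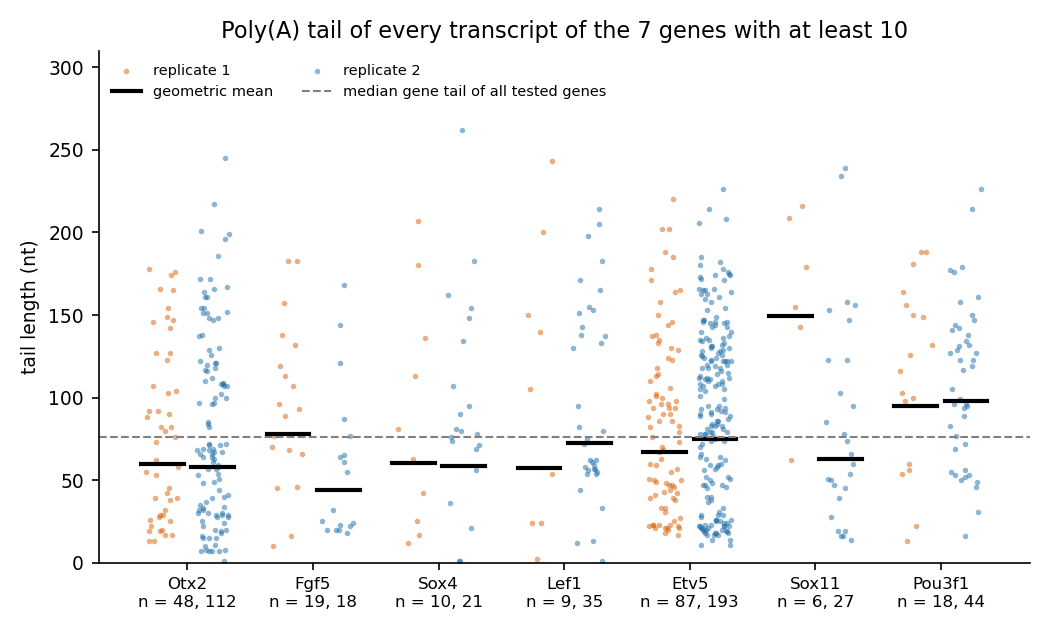
Tail length in nt of every transcript of the 7 genes, ordered by gene tail, with replicate 1 in orange and replicate 2 in blue; black bars give the geometric mean in each replicate, the dashed line is the 76.4 nt median of all genes, and n gives the transcripts of replicates 1 and 2. Pou3f1 lies above the line in both replicates, Otx2, Sox4, Lef1 and Etv5 below it in both, Fgf5 and Sox11 on either side, and a dense group of tails between 10 and 30 nt is seen in Otx2 and Etv5.

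**Figure D3:**
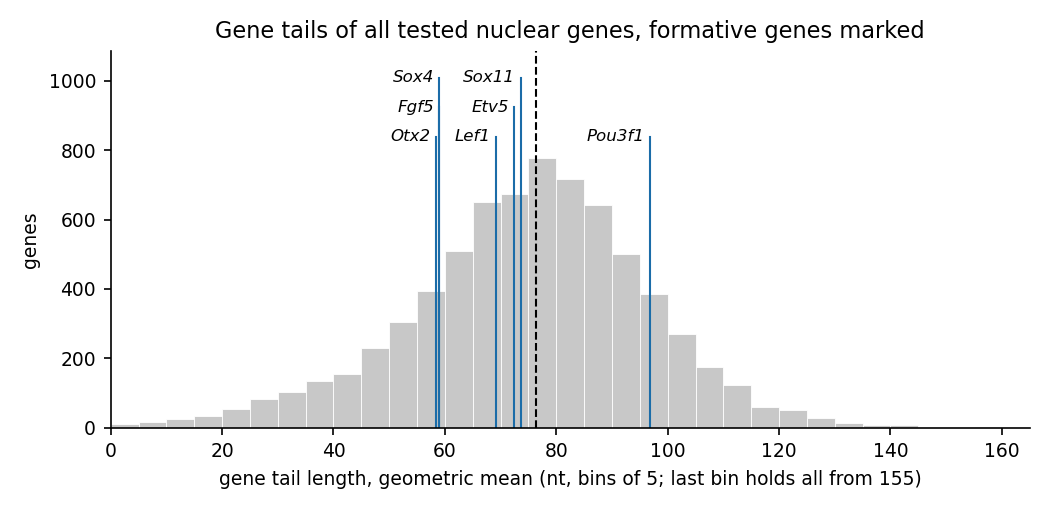
Histogram of the gene tails of 7146 nuclear genes in bins of 5 nt (grey), with the 7 formative genes as blue lines and the median of 76.4 nt dashed. Otx2, Fgf5 and Sox4 fall together near 59 nt, and Pou3f1 alone lies above the median.

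The tail lengths of single transcripts were also set beside those of all nuclear transcripts. The median over the 652 transcripts was 84.5 nt (78 to 93 nt), with 86 and 84 nt in the single replicates, against 91 nt in each replicate for all nuclear transcripts. Without Otx2 and Etv5, the median of the 212 transcripts left was 89 nt (76 to 103 nt). Tails over 150 nt made up 15.8% of the members' tails, against 15.6% of all. This pooled share was set largely by Otx2, with 24 of 160, and Etv5, with 37 of 280. The other members together had 42 of 212, or 19.8% (15.004 to 25.7%). Among the 5 of these with a gene tail the share was 10.8% in Fgf5, 19.4% in Pou3f1 and in Sox4, 11 of 44 in Lef1 and 27.3% in Sox11. Tails over 90 nt made up 46.9% (43.1 to 50.8%) of member transcripts, 46.2% and 47.2% in the replicates, against 50.6%. This share ran from 35.1% in Fgf5 to 67.7% in Pou3f1.

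Tails of 6 to 30 nt were more frequent in the members. They were 37 of 199 member transcripts in replicate 1, or 18.6% (13.8 to 24.6%), and 83 of 453 in replicate 2, or 18.3% (15.03 to 22.1%). The same class held 8.62% of all nuclear transcripts in replicate 1 and 8.05% in replicate 2. In this pool, where Otx2 and Etv5 supplied 67.5% of the transcripts, the gap of about 10 percentage points was far larger than the difference between replicates. Without these 2 genes the member share was 12.7%. The shares of single genes moved in both directions between the replicates, so the close pooled shares do not describe each gene. Tails of 1 to 5 nt went the other way, with 0.767% of member transcripts (0.328 to 1.78%) against 2.32% of all, so the surplus was not one of the very shortest tails. Classes from 31 nt upwards were each at or below the share in all transcripts, apart from the longest.

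Otx2 and Etv5 supplied 93 of the 120 tails of 6 to 30 nt. In Otx2 the share was 27.1% (13 of 48) in replicate 1 and 24.1% (27 of 112) in replicate 2. In Etv5 it was 17.2% (15 of 87) and 19.7% (38 of 193). Both genes therefore held the surplus in each replicate. Their short tails centred at 19.5 nt in Otx2 and 21 nt in Etv5; 7 of the 40 in Otx2 were of 6 to 10 nt, while none of the 53 in Etv5 was.

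The other members had 27 such tails among 212 transcripts, or 12.7% (8.90 to 17.9%). In Fgf5 the share was 27.0% (15.4 to 43.0%), resting on 2 of 19 transcripts in replicate 1 and 8 of 18 in replicate 2. Sox11 had 18.2% (8.61 to 34.4%), with all 6 in replicate 2. Sox4 had 12.9%, with 3 of 10 transcripts in replicate 1 and 1 of 21 in replicate 2. Lef1 had 9.09%, with 2 of 9 and 2 of 35 in turn, and Pou3f1 had 4.84% (1.66 to 13.3%). The interval lay wholly above the 8.25% of all nuclear transcripts in 4 of 7 members, Otx2, Fgf5, Sox11 and Etv5, and in 18.9% of all genes. The lower bound of Sox11 was 8.61%, just inside. Its 6 short tails included a 16-nt and a 19-nt sequence, each read 2 times in replicate 2. These may be copies of 1 molecule, so the place of Sox11 among the 4 may rest on repeated reads. The median share over the 7 genes was 18.2%, against 8.33% over all genes.

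**Figure D4:**
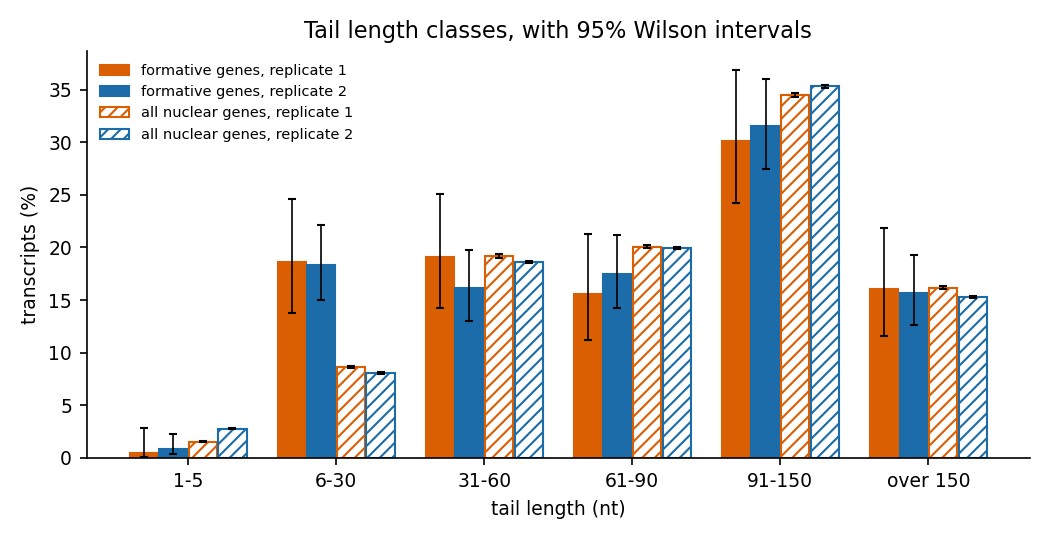
Share of transcripts in each class of tail length in percent, for the formative genes (filled) and all nuclear genes (hatched) in replicate 1 (orange) and replicate 2 (blue), with 95% Wilson intervals. The members stand above the rest in the 6 to 30 nt class, at 18.6% and 18.3% against 8.62% and 8.05%.

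Short tails were also more frequent in long transcripts, so each gene was set beside genes of like length. All genes were put into 10 classes by the length of their longest annotated transcript, and the share of 6 to 30 nt tails ran from 2.79% in the shortest class to 11.5% in the longest, with the highest, 12.3%, in class 9. The members were above the share of their own class in 5 of 7 cases, and so were 47.7% of all genes. Otx2 and Fgf5, in class 4, were set beside 8.61%, and Etv5, in class 7, beside 10.6%, which left all 3 above it. Lef1 and Pou3f1 lay below theirs, at 10.2% and 10.6%. By gene tail, Otx2 differed by -18.1 nt and Fgf5 by -17.5 nt from the 76.5 nt of their class, and Sox4 by -11.5 nt from the 70.6 nt of class 8. The difference was -5.38 nt for Lef1 and within 0.1 nt for Etv5. Pou3f1 was 24.3 nt above the 72.5 nt of class 7, and Sox11 11.4 nt above the 62.2 nt of class 10. Sox11 therefore lay below the median of all genes but above that of genes with transcripts as long as its own.

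Non-A bases did not set the members apart in 1 direction. A tail with at least 1 such base made up 15.1% (10.8 to 20.7%) of member transcripts in replicate 1 and 7.51% (5.42 to 10.3%) in replicate 2, against 12.2% and 9.55% of all nuclear transcripts. Members were thus above the rest in 1 replicate and below it in the other. Over both replicates, T occurred in 6.60% of member tails against 6.003%, C in 2.30% against 3.22% and G in 1.84% against 2.46%. Single genes ran from 6.45% of tails in Sox4 to 21.6% in Fgf5.

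A terminal T was found mostly on short tails. Of the member tails of 6 to 30 nt, 23 of 120 ended in T, or 19.2% (13.1 to 27.1%), against 6 of 527 longer ones, or 1.14% (0.523 to 2.46%). All nuclear transcripts had the same division, with 15.2% and 1.97%. The replicates differed: 12 of 37 short member tails ended in T in replicate 1, or 32.4% (19.6 to 48.5%), and 11 of 83 in replicate 2, or 13.3% (7.56 to 22.2%). In all nuclear transcripts these shares were 18.3% and 13.4%, so replicate 1 was the higher one there too. All 6 T-ended member tails over 30 nt were of Etv5, 3 in each replicate. Tails ending in at least 2 T bases, as in the Lef1 and Etv5 tails shown above, numbered 9 of 652.

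Single genes divided between the replicates. The 4 short T-ended tails of Otx2 were all in replicate 1, where they made up 4 of 13 short tails against 0 of 27 in replicate 2. Those of Fgf5, also 4, were all in replicate 2. Etv5 had 5 of 15 in replicate 1 and 2 of 38 in replicate 2. With counts of this size, no gene can be given a terminal T share of its own.

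**Figure D5:**
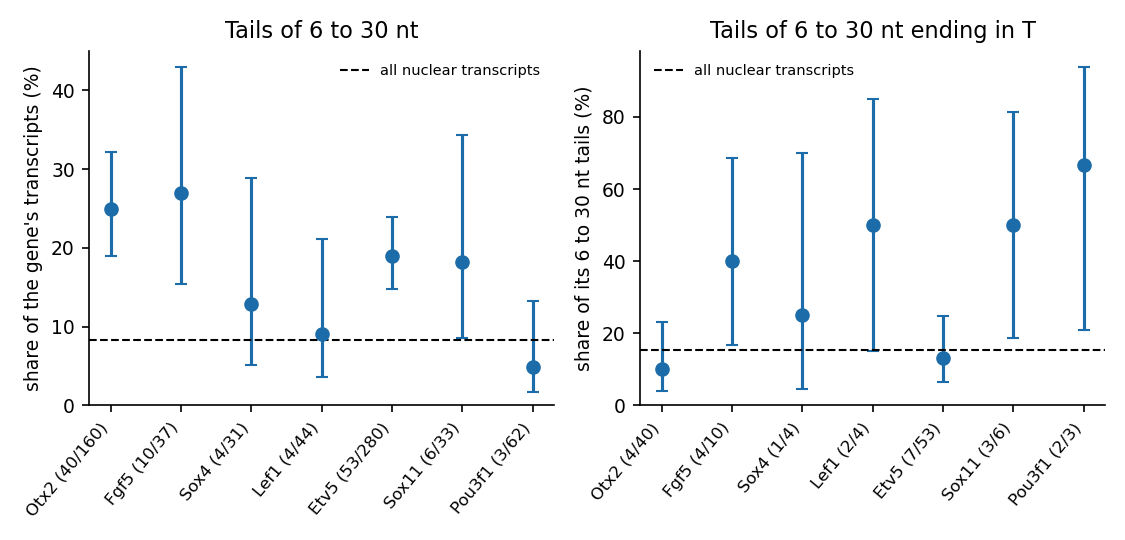
Left, share of each gene's transcripts with a tail of 6 to 30 nt in percent; right, share of those short tails that end in T in percent; points are both replicates together with 95% Wilson intervals, counts stand beside the gene names, and dashed lines give all nuclear transcripts. Otx2, Fgf5, Sox11 and Etv5 have intervals above the line on the left, and on the right the intervals are wide, with 3 to 53 short tails a gene. Identical tails were each counted, which matters most for Sox11, whose interval lies just above the line.

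Fgf5 had a recurrent tail. Of its 18 tails in replicate 2, 5 began with A followed by T, were 18 to 22 nt long, and 4 of them ended in T, while 1 of 19 in replicate 1 began so, with 96 nt. In all nuclear transcripts, T was the second base of 0.348% of tails. One 20-nt sequence was read 3 times in replicate 2:
Fgf5: aTaaaaaaaaaaaaaaaaaT
Identical tails can be separate molecules or copies of 1, which cannot be told apart without molecular identifiers. Leaving out the tails that began this way, the gene tail of Fgf5 came to 77.0 nt for replicate 1 and 59.6 nt for replicate 2. Replicate 2 minus replicate 1 had been -33.9 nt with all tails, so the replicates came closer but still differed. Other non-A tails read more than once were 1 of Otx2, 2 times in replicate 1, and 2 of Sox11, 2 times each in replicate 2, one of them the tail with G and C shown above. An Etv5 tail of 21 nt was read once in each replicate. Counting each such sequence once per gene and replicate gave 9.12% of member tails with a non-A base in place of 9.82%, and 17.8% with 6 to 30 nt in place of 18.4%.

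The genes themselves were placed on GRCm38 (mm10) with the GENCODE vM21 annotation. The transcription factor genes Otx2 (ENSMUSG00000021848, chr14:48657677-48673819, minus strand, 6 exons), Pou3f1 (ENSMUSG00000090125, chr4:124656807-124660655, plus strand, 1 exon), Etv5 (ENSMUSG00000013089, chr16:22381309-22439719, minus strand, 13 exons) and Lef1 (ENSMUSG00000027985, chr3:131110471-131224356, plus strand, 12 exons) were joined by Fgf5 (ENSMUSG00000029337, chr5:98254184-98277030, plus strand, 3 exons). Sox4 (ENSMUSG00000076431, chr13:28948919-28953713, minus strand) and Sox11 (ENSMUSG00000063632, chr12:27334264-27342574, minus strand) had 1 exon each. Single-exon genes were thus 3 of the 7 members, against 1.73% of the 6754 coding genes with a tail. The 117 single-exon genes among these gave a median of 81.5 nt. The 3 were not alike, since Pou3f1 was above that value and Sox4 and Sox11 were below it. Genes overlapping the exons of the members, such as Otx2os1 and Gm2164, had 0 transcripts.

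The annotated 3′UTR had a median length of 1599 bases over the 7 genes, against 1177 bases over all coding genes with a tail, and 6 of the 7 were above that median. It was shortest in Otx2, with 1029 bases, and longest in Sox11, with 6957 bases. The end of the annotated transcript was read for the polyadenylation signal, since this is where the tail is added; the deposited values hold no alignment positions, so the end used by each molecule is not known. The hexamer AATAAA, searched on the sense strand only in the last 50 bases, stood in 5 of 7 genes and in 64.7% of coding genes. The variant ATTAAA stood in Otx2 and in 18.5% of coding genes, and Pou3f1 had neither in this window. The 30 bases around each hexamer are given 5′ to 3′ on the gene's strand, with the hexamer in capitals.
Otx2, chr14:48657680-48657709: atgtataattatATTAAAatggttctagca
Fgf5, chr5:98276998-98277027: cctaaatgctgcAATAAAgaggcgtagatg
Lef1, chr3:131224323-131224352: cattttattaagAATAAAtttgctcataat
Sox4, chr13:28948930-28948959: ttttgagaaggaAATAAAatcagctggaac
Sox11, chr12:27334274-27334303: aagaattcaacaAATAAAttcattgacatt
Etv5, chr16:22381318-22381347: tgtactgtgtacAATAAAgaagattgcttt
The distance from the hexamer to the annotated end was 15 bases in Otx2 and Fgf5, 16 in Lef1, 21 in Etv5, 22 in Sox11 and 23 in Sox4. The members with the lowest and the highest gene tail, Otx2 and Pou3f1, were the 2 without AATAAA in this window. The pentamer ATTTA, the core of AU-rich elements, was found on the sense strand in the last 500 bases of 5 of 7 genes, in Etv5 3 times and in Pou3f1 2 times, and in 59.5% of the 5074 coding genes whose last 500 bases could be searched. Fgf5 and Sox11 had none there. A match is a description of the sequence and not a site in use.

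Lists of other pluripotency genes were set beside the members. Among 19 other formative and FGF-target genes, 15 had a tail, of which 6 were under 75 nt, and the median gene tail was 82.4 nt. The 2 most often read were Dnmt3l, a cofactor of de novo DNA methylation, with 89.6 nt, and the methyltransferase Dnmt3a, with 70.8 nt. Beside the 6 of 7 members under 75 nt this was a lower share, and the difference was not tested.

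Of 15 naive pluripotency genes, 11 had a tail and the median was 77.7 nt. Zfp42, the naive marker also known as Rex1, had 52.6 nt over 501 transcripts, below Otx2, and Zfp57, an imprint regulator, had 49.6 nt. Klf2 with 73.8 nt and Nr0b1 with 73.0 nt were also under 75 nt, which made 4 of 11, while Fgf4 had 82.6 nt. Of the 8 core pluripotency genes, all had a tail, with a median of 79.8 nt, and 2 were under 75 nt, L1td1 with 71.4 nt and Dppa2 with 66.6 nt. Trim28, the most often read after L1td1, had 76.4 nt. Gene tails under 75 nt were thus found among naive, core and formative genes alike. In the naive, core and other formative lists, their share was each time below the 47.4% of all genes. These differences were not tested. In the Sox family, 3 of 10 genes had a tail: Sox2, the SoxB1 partner of Oct4, with 83.1 nt, and the members Sox4 and Sox11. Sox2 had 84.8 nt in replicate 1 against 82.6 nt in the other.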

How the data were processed

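Wild-type ICR mouse EpiLCs at 24 h were profiled by PAIso-seq in 1 sample with 2 barcodes. Per the methods, the authors made circular consensus reads, mapped them to mm10 with minimap2 (2.17), took the soft-clipped 3′ sequence as the tail, extended it upstream over aligned A runs where needed, discarded tails with fewer than 4 A in the first 8 bases and molecules without a tail, and assigned genes with featureCounts (2.0.1). The deposited values are counts per transcript, namely passes and the A, C, G and T bases of the tail. In the deposited values, 1024 of 855606 tails of at least 8 nt still had fewer than 4 A; 0 of the 643 members' tails did.

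Gene identifiers were joined to GENCODE vM21, mitochondrial genes were left out, and tail length was the sum of all tail bases. Transcripts with at least 7 passes and genes with at least 10 transcripts were kept. At this depth, 6 to 280 transcripts lay behind each gene tail printed for the 7 members, in single replicates or both. Medians had exact order-statistic 95% intervals and shares 95% Wilson intervals, both for counting error only. The summaries were checked on simulated tails. All 10 members are named; other genes are the 2 most often read of each list and any needed by a count of 5 or fewer. Tail sequences shown were those with the most passes among tails of 6 to 30 nt ending in T, and among tails of at most 80 nt with a non-A base inside. The members and lists were chosen with earlier results of these data known, and the share of 6 to 30 nt tails was added as a result after seeing the data. Alternatives covered passes, tail definition, gene summary, transcript minimum and single replicates. Of member reads, 48 with under 7 passes were left out, and 37 (5.67%) shared a sequencing well with another read. Python 3.11.15, pandas 2.3.3 and scipy 1.17.1 were used.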

Additional observations from a re-analysis of the deposited data

How the results depend on the processing

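No paired analysis was possible because the replicates belonged to a single group. The median gene tail of the members was 73.6 nt with tails of at least 6 nt, 77.5 nt with tails of at least 15 nt, 92.1 nt by the arithmetic mean, 78.0 nt by the median and 59.0 nt where each replicate had to hold at least 10 transcripts; with single replicates it was 62.9 to 67.3 nt. The difference of the members' median from that of all genes was -3.99 nt when only A bases were counted. It was -1.71 nt by the arithmetic mean, -11.0 nt by the median and -18.2 nt where each replicate had to hold at least 10 transcripts. In replicate 1 alone it was -10.7 nt and in replicate 2 alone -13.9 nt, over the same 5 and 7 genes. The difference kept its sign under all 17 alternatives. Members under 75 nt were 3 of 7 with tails of at least 15 nt, against 27.8% of all genes. They were 0 of 7 with the arithmetic mean against 12.5%, and 2 of 7 with the median against 24.3%. In replicate 1 alone they were 3 of the 5 members with at least 10 transcripts, and in replicate 2 alone 6 of 7. Without the outermost bases of the tail they were 4 of 7. The share of all genes is not given for the single replicates or for that setting. Tails over 90 nt were 44.6% with at least 15 passes, 48.8% with tails of at least 15 nt and 49.1% without Otx2 and Etv5. Tails of 6 to 30 nt were 17.9% with no filter on passes, 18.7% with at least 15 passes, 19.0% without the outermost bases of the tail, 17.8% with identical non-A tails counted once and 12.7% without Otx2 and Etv5. The last 2 settings were chosen after seeing the data. The share of non-A tails, 9.82% in the main setting, ran from 6.49% without the outermost bases to 15.1% in replicate 1 alone. These moves were less than its spread between replicates under all 10 alternatives. That spread was wide (SD 5.35 percentage points), so this is a weak check. With 6 to 35 transcripts per replicate, the tails of Fgf5, Sox11, Lef1 and Sox4 were limited by depth.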
